A study of Rattus norvegicus with 16 samples.

Results

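The genes described here are the voltage-gated sodium channel subunits (Scn genes), the pore-forming alpha1, the alpha2delta and the beta subunits of voltage-gated calcium channels (Cacna1, Cacna2d and Cacnb genes) and the hyperpolarization-activated HCN channels (Hcn genes). They were taken as every array probe whose gene name begins with one of these stems, which gave 36 genes and 58 probes of 35199 gene names and 41012 probes on the array. The calcium channel gamma family (Cacng genes) was not counted among them. RNA came from primary cultures of hippocampal neurons of Sprague-Dawley rats, taken from embryos of either sex at embryonic day 18 to 19. The 4 groups were neurons given a lentivirus with a short hairpin RNA (shRNA) against the coding region of PRR7 (knockdown, KD), neurons given a lentivirus that carried PRR7 for overexpression (OE), neurons given a lentivirus with a nontargeting shRNA (NT) and neurons that received no virus (not transduced, NO), with 4 samples in each. A single shRNA sequence against PRR7 is given in the labels. PRR7 is an adaptor protein that spans the synaptic membrane, and the study concerned its part in how c-Jun, a transcription factor, is turned over. The array holds no probe named Prr7, so the targeted transcript could not be read.

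Sodium channel alpha subunits form the pore that carries the upstroke of the action potential, and the beta subunits are small membrane proteins that set the gating and surface level of that pore. Calcium channel alpha1 subunits admit calcium at nerve terminals (P/Q-type and N-type), at dendrites and cell bodies (L-type and R-type) or near the resting potential (T-type), while beta and alpha2delta subunits bring the high-voltage-activated ones to the membrane. HCN channels open on hyperpolarization, carry the h-current and damp dendritic signals in hippocampal pyramidal neurons.

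Each sample was read in 1 dye (Cy3 for replicates 1 and 3, Cy5 for replicates 2 and 4) of a 2-colour array, and 2 samples of 1 group were hybridised together on each of the 8 arrays. KD and NT samples shared a slide and OE and NO samples shared the other, so that KD against NT and OE against NO were compared within a slide; in OE against NT, KD against NO and NT against NO, slide and group cannot be told apart. Values are log2 intensities after background correction and normalization, on which a step of 1 is a doubling of intensity; signals close to background are compressed on this scale, and levels of different probes are not compared. Between 49.2% and 69.6% of all probes stood well above background in a sample. The share was 49.2% to 57.7% in Cy3 samples and 60.0% to 69.6% in Cy5 samples, so counts of samples well above background also depend on the dye. Of the listed neuronal marker genes, 11 had a probe and none of these was below background throughout. In bulk RNA, fewer cells of a type and less RNA per cell cannot be told apart. Of the 9 interneuron markers tested, 5 were higher and 1 was lower in KD than in NT samples (adjusted p under 0.05 in limma), where 10.3% of all probes were higher and 10.8% lower. The 8 oligodendrocyte-lineage markers gave 3 higher and 0 lower calls, and the 9 astrocyte markers 3 higher and 1 lower. The 11 neuronal markers gave 2 higher and 1 lower, and the 7 markers of excitatory neurons 0 in either direction. The study design calls the samples biological replicates.

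Of the 58 probes, 48 probes of 32 genes passed the filter on dim signal, which asked for a spot well above background in at least 4 samples. Well above background in all 16 samples stood 25 probes, and 6 probes were so in none. The 4 genes that were not tested were Scn4a, the sodium channel of skeletal muscle, Cacna1f, the L-type pore of the retina, and the alpha2delta subunits Cacna2d2 and Cacna2d4. Scn4a, Cacna1f and Cacna2d2 were well above background in 1 sample each, and Cacna2d4 in 0. The filter kept a probe also where a single group lifted it past the limit, so the tested probes are not all of the members.

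In KD against NT samples 8 of the 48 tested probes passed the test (limma across all 27294 probes, Benjamini-Hochberg adjusted p under 0.05), 5 of them higher and 3 lower in KD. The share among the channel probes was 16.67%, beside 21.1% over all probes, 10.3% higher and 10.8% lower; with 1 probe per gene name it was 8 of 32, beside 21.5%, so neither order held throughout. With the deposited normalized values in place of the scanner values, 9 of 43 tested probes were higher and 1 was lower, beside 22.3% of all probes in either direction. The split of all probes by direction was not taken at this setting. Of the 8 that passed with the scanner values, 7 are described here. Higher were Scn7a, Scn3b, one probe of Cacna1d and one of Cacna1s, and lower were one probe of Cacnb2, Cacnb1 and one probe of Cacna1c. The median log2 difference of the 48 probes was 0.07, beside -0.02 over all probes, and the median absolute difference was 0.22 in both. In OE against NO samples 0 of the 48 probes passed, beside 0.00366% (1 probe) on the whole array, and none of the 48 had an unadjusted p under 0.05 in limma, beside 3.818% of all probes. The differences of the 48 probes in OE against NO lay between -0.35 and 0.47, and the median half-width of their 95% confidence intervals was 0.32.

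**Figure D1:**
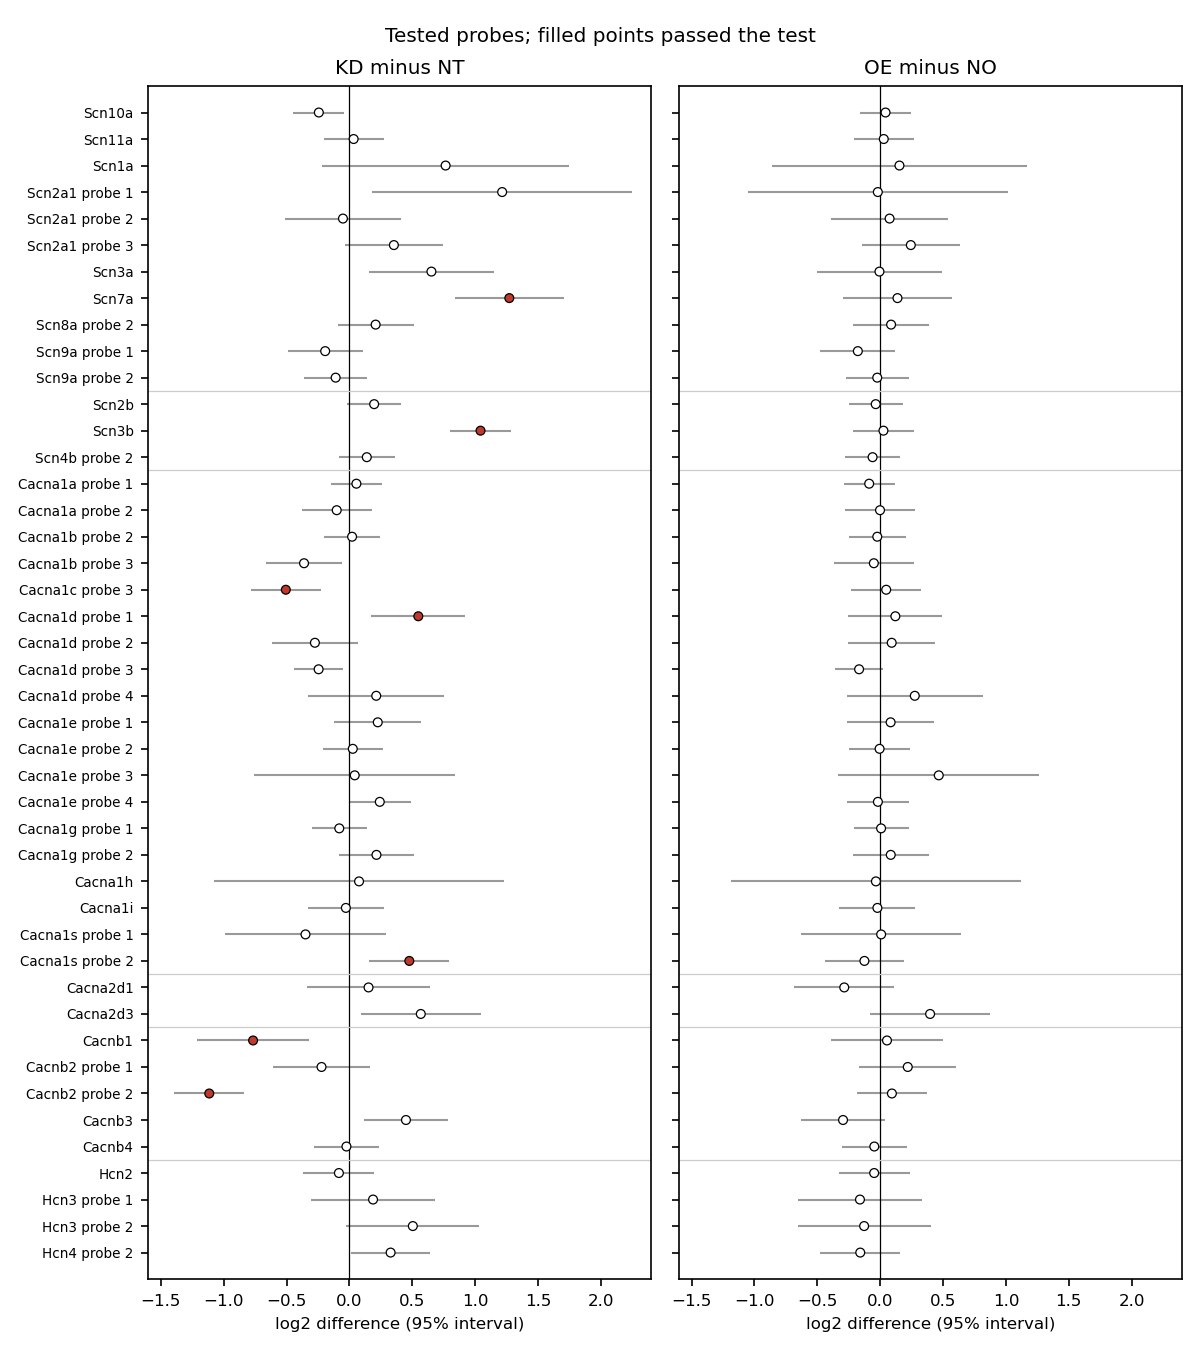
Log2 difference (x axis) with its 95% confidence interval for 44 of the 48 tested channel probes (y axis, in the order sodium alpha, sodium beta, calcium alpha1, alpha2delta, beta and HCN, separated by lines), for KD minus NT on the left and OE minus NO on the right. Filled points passed the test, 7 on the left and 0 on the right, and the points on the right lie closer to 0.

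The position of the other groups differed between these 7 probes. KD stood apart for Scn7a, for which all 4 KD values lay above the 12 values of the other groups. NT stood apart for Scn3b and Cacna1s probe 2, below all 12 others, and for Cacnb2 probe 2, Cacnb1 and Cacna1c probe 3, above all 12 others. For Cacna1d probe 1 neither group stood apart. Over the 48 probes, the NT values lay above all others for 6 probes and below for 2, where 8.8% and 7.87% of all array probes did so (16.7% in either direction). The KD values lay above all others for 3 probes and below for 1, beside 4.5% and 4.59% of all probes (9.09% in either direction). The OE values lay below all others for 1 probe and above for 0, beside 1.05% and 0.377% of all probes (1.43% in either direction). The NO values did so for 0 probes, beside 0.557% above and 0.436% below over all probes (0.993% in either direction).

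**Figure D2:**
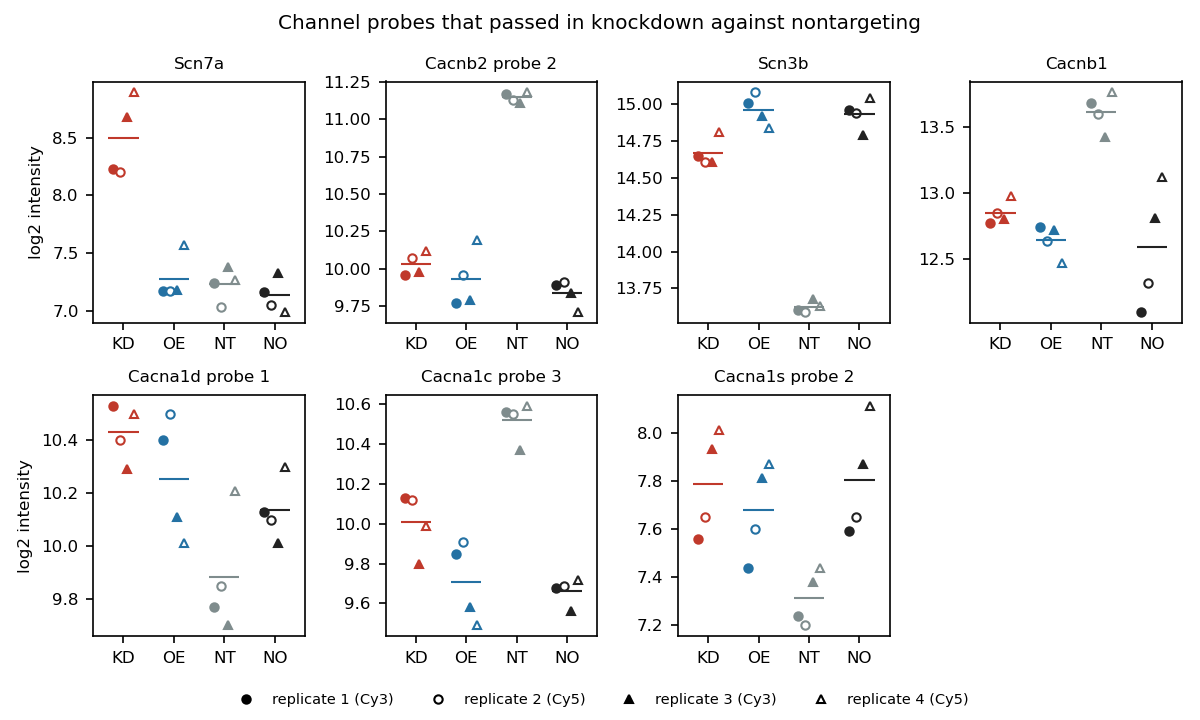
Log2 intensity (y axis of each panel, with its own range) in every sample of the KD, OE, NT and NO groups (x axis) for 7 probes that passed in KD against NT, ordered by the size of the difference. Each symbol is 1 sample, circles and triangles mark the first and second array of a group, open symbols are Cy5 and lines are group means; KD lies above the other groups for Scn7a, and NT lies apart for 5 of the other 6 probes.

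Among the sodium channel alpha subunits 1 of 13 tested probes passed in KD against NT, that of Scn7a, which encodes a sodium-sensing channel known from glia and sensory neurons that is not gated by voltage in the usual way. The Scn7a probe lies at chr3:48633684-48633743 on the minus strand in the rn4 positions of the array annotation. It read 8.23, 8.20, 8.68 and 8.89 in the KD samples, against 7.24, 7.03, 7.38 and 7.27 in the NT samples. All KD values exceeded all NT values, and the second KD array was higher than the first. The log2 difference was 1.27 (SE 0.20, adjusted p = 3.96e-04), and 3.12 with the processed signals of the scanner software (adjusted p = 0.00299). The signal was dim: the probe was well above background in 4 KD samples, 2 OE samples, 2 NT samples and 0 NO samples. In OE samples it read 7.17, 7.17, 7.18 and 7.57, against 7.16, 7.05, 7.33 and 6.99 in NO samples, and these groups overlapped.

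Astrocyte and oligodendrocyte markers were read beside Scn7a because it is a glial gene. The summed linear signal of the 9 astrocyte markers ranged from 93810 to 108100 in KD samples, from 115800 to 143500 in OE samples, from 76650 to 98460 in NT samples and from 90970 to 137700 in NO samples. That of the 8 oligodendrocyte-lineage markers ranged from 29360 to 42240 in KD, from 16380 to 33980 in the 3 OE samples with a value for every marker, from 12060 to 20210 in NT and from 19470 to 29280 in NO samples. None of the markers on either list was below background throughout. Between KD and NT, the astrocyte glutamate transporter Slc1a3 rose by 1.14 on the log2 scale, while the astrocyte filament gene Gfap fell by 1.57. The part of these cells in the Scn7a result was not tested.

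The neuronal sodium channel pores did not pass between KD and NT. Scn3a, the pore that prevails in embryonic brain, read 12.51, 12.71, 12.29 and 12.51 in KD samples, against 12.11, 11.96, 11.50 and 11.84 in NT samples. These groups did not overlap, yet the difference of 0.65 missed the threshold (adjusted p = 0.0611); with the replicate number as a block it passed (adjusted p = 0.0326). The OE and NO means of Scn3a were both 12.10, between those of KD and NT. Scn1a, a pore found at high level in inhibitory neurons, read 11.37, 11.28, 10.62 and 10.86 in KD samples and 10.41, 10.45, 9.99 and 10.21 in NT samples, a difference of 0.76 whose adjusted p was 0.271. All 4 KD values of Scn1a lay above every other sample; the OE values were 10.21, 8.68, 10.13 and 9.65 and the NO values 9.28, 9.53 and 9.97, with replicate 2 of NO dropped as an outlier spot. Scn8a, which drives firing at the axon initial segment of mature neurons, differed by 0.21 between KD and NT at the probe that was tested (adjusted p = 0.338), and its other probe was below background.

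Scn2a1, the sodium channel pore of early axons, was read by 3 probes that did not move together. Probe 1 read 12.56, 11.87, 10.17 and 10.12 in the KD samples, against 10.41, 10.28, 9.43 and 9.74 in the NT samples. The first KD array was 2.07 above the second on the log2 scale, and the groups overlapped. The difference of 1.21 had a 95% confidence interval of 0.18 to 2.25 and did not pass (adjusted p = 0.0927). At probe 2 the difference was -0.05 (adjusted p = 0.903) and at probe 3 it was 0.35 (adjusted p = 0.198). Probe 1 was designed to a different transcript model from the other 2.

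The remaining sodium channel pores belong mainly to other tissues and were dim, apart from Scn9a probe 1. That probe was well above background in every sample. Scn10a and Scn11a, the pores of pain-sensing neurons, differed by -0.24 (adjusted p = 0.0836) and 0.03 (adjusted p = 0.879) between KD and NT. The 2 probes of Scn9a, a pore of peripheral neurons, differed by -0.19 and -0.11.

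Of the sodium channel beta subunits Scn3b passed between KD and NT. Scn3b encodes a beta subunit made strongly in the embryonic brain, and its probe lies at chr8:43253930-43253989 on the plus strand of rn4. It read 14.65, 14.61, 14.61 and 14.81 in KD samples, against 13.60, 13.59, 13.68 and 13.63 in NT samples. The gap between the groups was far wider than the spread within them, and the log2 difference was 1.04 (SE 0.12, adjusted p = 1.56e-05), a 2.06-fold higher signal in KD. In OE samples it read 15.01, 15.08, 14.92 and 14.84, against 14.96, 14.94, 14.79 and 15.04 in NO samples. The OE and NO values overlapped and averaged 14.96 ± 0.11 and 14.94 ± 0.10 (SD, n = 4 each), above all NT values; of the KD values, 1 (14.81) exceeded the lowest NO value (14.79).

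Scn2b and the tested probe of Scn4b, both of which bind the pore by a disulfide bond, differed by 0.20 and 0.14 between KD and NT (adjusted p = 0.191 and 0.397), and the other probe of Scn4b was below background.

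Among the calcium channel alpha1 subunits 3 of 19 tested probes passed between KD and NT, all of L-type genes. Cacna1c encodes the main L-type pore of the brain and heart. Its tested probe, at chr4:154895974-154896033 on the minus strand of rn4, was spotted 10 times on each array, with a median SD between spots of 0.28. It read 10.13, 10.12, 9.80 and 9.99 in KD samples, against 10.56, 10.55, 10.37 and 10.59 in NT samples. The groups did not overlap, and the signal fell by 0.51 on the log2 scale (SE 0.13, adjusted p = 0.0113). OE samples read 9.85, 9.91, 9.58 and 9.49, against 9.68, 9.69, 9.56 and 9.72 in NO samples, so that NT was the highest of the groups. With the deposited normalized values in place of the scanner values the difference was -0.28 and did not pass (adjusted p = 0.38), nor did it with each array as 1 value (adjusted p = 0.0619) or without the second KD array (-0.39, adjusted p = 0.129). The other 2 probes of Cacna1c were below background in all 16 samples.

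Cacna1d, the L-type pore that opens at lower voltages, had 4 tested probes, of which 1 passed. Probe 1 read 10.53, 10.40, 10.29 and 10.50 in KD samples, against 9.77, 9.85, 9.70 and 10.21 in NT samples, a rise of 0.55 (SE 0.18, adjusted p = 0.0368). Probe 3 read 8.66, 8.64, 8.67 and 8.69 in KD samples, against 8.90, 8.76, 8.99 and 8.99 in NT samples, a difference of -0.25 that missed the threshold (adjusted p = 0.0688). At both probes the groups did not overlap, with KD above NT at probe 1 and below it at probe 3. Probe 2 differed by -0.28 (adjusted p = 0.259) and probe 4 by 0.21 (adjusted p = 0.619). The rise at probe 1 was 0.84 with the deposited values. Its call did not hold without KD replicate 1 or 4 or NT replicate 2 or 3 (adjusted p between 0.0506 and 0.0733), without either KD array or the first NT array (adjusted p between 0.11 and 0.145), or on the KD and NT samples alone (adjusted p = 0.0893). Probes 2 and 3 were each designed to a transcript model other than that of probes 1 and 4, and probe 3 spans 466 bases of rn4 and so crosses a splice junction. The sequences of the probes that went opposite ways follow, 5′ to 3′ in the sense of the transcript; probe 1 covers chr16:5465138-5465197 and probe 3 chr16:5420764-5421229, both on the minus strand of rn4.
Cacna1d probe 1: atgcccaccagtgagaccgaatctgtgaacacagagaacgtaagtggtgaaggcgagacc
Cacna1d probe 3: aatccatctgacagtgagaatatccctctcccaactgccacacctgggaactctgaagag

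**Figure D3:**
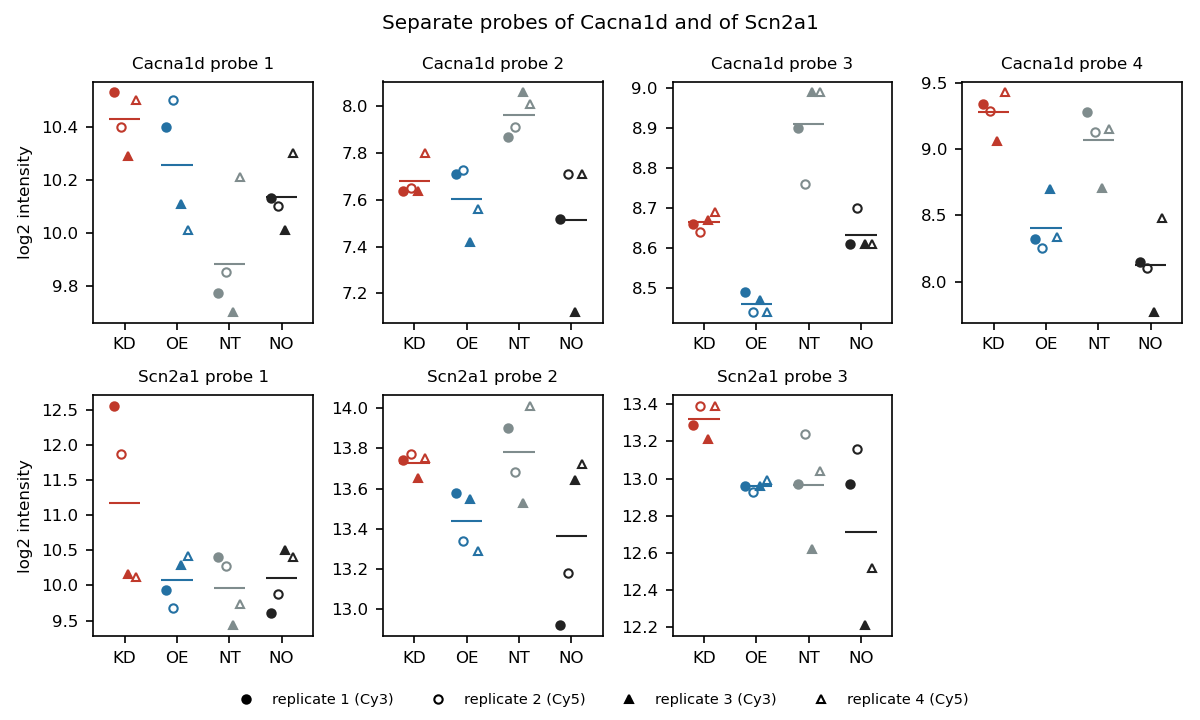
Log2 intensity (y axis of each panel, with its own range) in every sample of the KD, OE, NT and NO groups (x axis) for the 4 probes of Cacna1d (top) and the 3 probes of Scn2a1 (bottom). Each symbol is 1 sample and lines are group means; KD lies above NT at Cacna1d probe 1 and below it at probes 2 and 3, and at Scn2a1 probe 1 the KD values split by array.

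The third L-type call was Cacna1s, the pore of skeletal muscle, whose signal in these cultures was dim. The array annotation gives no rn4 position for either probe of Cacna1s. Cacna1s probe 2 read 7.56, 7.65, 7.93 and 8.01 in KD samples, against 7.24, 7.20, 7.38 and 7.44 in NT samples, a rise of 0.48 (SE 0.15, adjusted p = 0.0327). It was well above background in 4 samples of KD, OE and NO and in 2 samples of NT. OE samples read 7.44, 7.60, 7.81 and 7.87, against 7.59, 7.65, 7.87 and 8.11 in NO samples. In every group the first array was below the second. The rise was 1.20 with the processed signals and 1.25 with the deposited values. The call did not hold without KD replicate 3 or 4 or NT replicate 2 or 4 (adjusted p between 0.0525 and 0.0656), with each array as 1 value (0.152), without the second KD array (0.29, adjusted p = 0.33) or without the first NT array (0.38, adjusted p = 0.138). Probe 1 of the gene differed by -0.35 (adjusted p = 0.464), with 8.36 and 7.87 in NT replicates 3 and 4 and at most 7.23 in the other 14 samples. The summed linear signal of 5 muscle markers, of which 2 were below background throughout, ranged from 996 to 1078 in KD, from 1038 to 1106 in OE, from 924 to 959 in NT and from 1013 to 1195 in NO samples. The sum was lowest in NT, as was Cacna1s probe 2. Only 2 of these markers passed the filter on dim signal, and 0 of them passed in KD against NT. The part of muscle cells in the Cacna1s result was not tested.

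The calcium channels of nerve terminals did not pass between KD and NT. Cacna1b, the N-type pore, read 11.99, 11.93, 11.64 and 11.88 at probe 3 in KD samples, against 12.20, 12.09, 12.23 and 12.38 in NT samples. The groups did not overlap, but the difference of -0.36 had an adjusted p of 0.0900 in limma. OE samples read 12.72, 12.56 and 12.37, with replicate 1 dropped as an outlier spot, against 12.71, 12.59, 12.55 and 12.65 in NO samples, so KD was the lowest group. The other tested probe of Cacna1b, which was dim, differed by 0.02, and the remaining one was not tested. The 2 probes of Cacna1a, the P/Q-type pore, differed by 0.05 and -0.10, and the 4 probes of Cacna1e, the R-type pore, by 0.03 to 0.24.

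The T-type pores were Cacna1g, Cacna1h and Cacna1i. The 2 probes of Cacna1g differed by -0.08 and 0.21 between KD and NT, and Cacna1i by -0.03. Cacna1h read 8.67, 8.50, 7.79 and 7.71 in KD samples, 9.14, 9.58, 7.51 and 7.47 in OE samples, 8.57, 8.44, 7.35 and 8.01 in NT samples and 8.75, 8.54, 7.62 and 8.93 in NO samples. Its first array was higher than the second in all 4 groups, by 0.83 in KD, 1.87 in OE, 0.83 in NT and 0.37 in NO, and its difference of 0.08 between KD and NT had a 95% confidence interval of -1.08 to 1.23.

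No alpha2delta probe passed on the same slide. Cacna2d3 had the smaller p of the 2 tested and read 11.58, 11.51, 11.81 and 11.71 in KD samples, against 10.87, 11.10, 11.30 and 11.05 in NT samples. These groups did not overlap; the difference of 0.57 missed the threshold (adjusted p = 0.087) and passed with the replicate number as a block (adjusted p = 0.0384). OE samples read 12.06, 11.90, 11.96 and 12.12, against 11.25, 11.42, 12.19 and 11.58 in NO samples, so NT was the lowest group on average and OE the highest. Cacna2d1, the binding site of gabapentin, read 15.74, 15.85, 15.69 and 15.65 in KD samples, against 15.60 and 15.56 in the 2 NT samples that gave a value, and differed by 0.15 (adjusted p = 0.702).

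The beta subunits, which sit inside the cell and hold the alpha1 pore at the membrane, had 2 calls among 5 tested probes, both lower in KD. Cacnb2 probe 2, at chr17:89078259-89078318 on the plus strand of rn4, read 9.96, 10.07, 9.98 and 10.12 in KD samples, against 11.17, 11.13, 11.11 and 11.18 in NT samples. The gap was many times the spread within a group, and the signal fell by 1.11 on the log2 scale (SE 0.13, adjusted p = 2.64e-05). OE samples read 9.77, 9.96, 9.79 and 10.19, against 9.89, 9.91, 9.84 and 9.71 in NO samples, near the KD values. The other probe of Cacnb2 was dim and also highest in NT: it read 7.40, 7.43, 7.45 and 7.37 in KD samples, against 7.61, 7.76, 7.51 and 7.66 in NT samples, a difference of -0.22 that did not pass (adjusted p = 0.437).

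Cacnb1, known best as the beta subunit of skeletal muscle and also made in brain, had its probe at chr10:86764289-86764348 on the minus strand of rn4. It read 12.77, 12.85, 12.80 and 12.98 in KD samples, against 13.68, 13.60, 13.42 and 13.76 in NT samples. The groups did not overlap, and the signal fell by 0.77 (SE 0.21, adjusted p = 0.0164). OE samples read 12.74, 12.64, 12.72 and 12.47, against 12.10, 12.32, 12.81 and 13.12 in NO samples. With the deposited normalized values the difference was -0.64 and did not pass (adjusted p = 0.0642), nor did it with each array as 1 value (adjusted p = 0.0628) or without the first (0.108) or the second KD array (0.0717).

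Cacnb3, a main beta subunit of hippocampal neurons, went the other way. It read 15.60, 15.61, 15.58 and 15.52 in KD samples, against 15.16, 15.13, 15.04 and 15.19 in NT samples, and the groups did not overlap. The difference of 0.45 missed the threshold (adjusted p = 0.0529) and passed with the replicate number as a block (adjusted p = 0.0346). OE samples read 15.51, 15.23, 15.19 and 14.94, against 15.71, 15.28, 15.52 and 15.55 in NO samples. Cacnb4, the beta subunit mutated in the lethargic mouse, differed by -0.02 (adjusted p = 0.922).

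Hcn2, an HCN channel with a broad place in the brain, differed by -0.08 between KD and NT (adjusted p = 0.721). The 2 probes of Hcn3 differed by 0.19 (adjusted p = 0.637) and 0.50 (adjusted p = 0.173). At Hcn3 probe 2 the NT samples split by array, with 9.35, 9.54, 8.24 and 8.41, against 9.60, 9.45, 9.30 and 9.20 in KD samples. Probe 1 of Hcn3 showed the same split in NT, the first array 0.92 above the second. Hcn4, the pacemaker channel of the heart, differed by 0.33 at the tested probe (adjusted p = 0.138), and its other probe was below background.

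The difference of the 2 same-slide comparisons, KD minus NT less OE minus NO, was also tested. KD was set against a control virus and OE against no virus. The difference therefore also holds any effect of the virus or of the nontargeting shRNA, and does not set knockdown against overexpression alone. In this test 4 of 48 channel probes passed, 3 higher and 1 lower, beside 9.64% of all probes, 5.4% higher and 4.24% lower. With the deposited values 8 of 43 were higher and 1 lower, beside 13.9% of all probes in either direction. With the processed signals 1 of 48 was higher and 1 lower, beside 9.1%. The 4 that passed were Cacnb2 probe 2 at -1.21 (adjusted p = 7.40e-04), Scn7a at 1.13 (adjusted p = 0.0205), Scn3b at 1.02 (adjusted p = 0.00101) and Cacnb3 at 0.74 (adjusted p = 0.045). For Cacnb2 probe 2 and Scn3b, NT was the group whose values lay apart from all others.

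Comparisons across the slides place the same values against another group, and in them slide and group cannot be told apart. They also share samples with KD against NT and with each other. In OE against NT 7 of 48 probes passed, 3 higher and 4 lower, beside 22.5% of all probes, 10.6% higher and 11.9% lower. With the deposited values 3 of 43 were higher and 8 lower, beside 25.9% of all probes in either direction. Of the 7, Scn3b rose by 1.33, Cacna2d3 by 0.93 and Hcn3 probe 2 by 0.85. At Hcn3 probe 2 the OE values (9.95, 9.94, 9.55 and 9.49) overlapped the NT values, which split by array. The falls were Cacnb2 probe 2 by 1.22, Cacnb1 by 0.97, Cacna1c probe 3 by 0.81 and Cacna1d probe 3 by 0.45. In NT against NO 9 of 48 passed, 5 higher and 4 lower, beside 22.3% of all probes, 11.2% higher and 11.1% lower. With the deposited values 7 of 43 were higher and 3 lower, beside 20.9% of all probes in either direction. Of the 9, the rises were Cacnb2 probe 2 by 1.31, Cacnb1 by 1.03, Cacna1d probe 4 by 0.94, Cacna1c probe 3 by 0.86 and Cacna1d probe 3 by 0.28. Scn3b fell by 1.31, Hcn3 probe 2 fell by 0.98, Cacna1s probe 2 fell by 0.49 and Hcn4 probe 2 fell by 0.43.

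In KD against NO 5 of 48 probes passed, 4 higher and 1 lower, beside 10.1% of all probes, 4.77% higher and 5.36% lower. With the deposited values 8 of 43 were higher and 0 lower, beside 14.2% of all probes in either direction. Of the 5, Cacna1d probe 4 rose by 1.15 and Scn2a1 probe 3 by 0.61, and Cacna1b probe 3 fell by 0.76. At Scn2a1 probe 3 the NO samples split by array, with the first array 0.70 above the second on the log2 scale. Scn7a was well above background in no NO sample, and its measured difference had an adjusted p of 7.00e-04 in limma. By group means, its KD signal was at least 2.56-fold higher than in NO, a bound that leaves out the sampling error. This bound takes, for each NO sample, the larger of the measured value and the lowest value well above background in that sample.

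**Figure D4:**
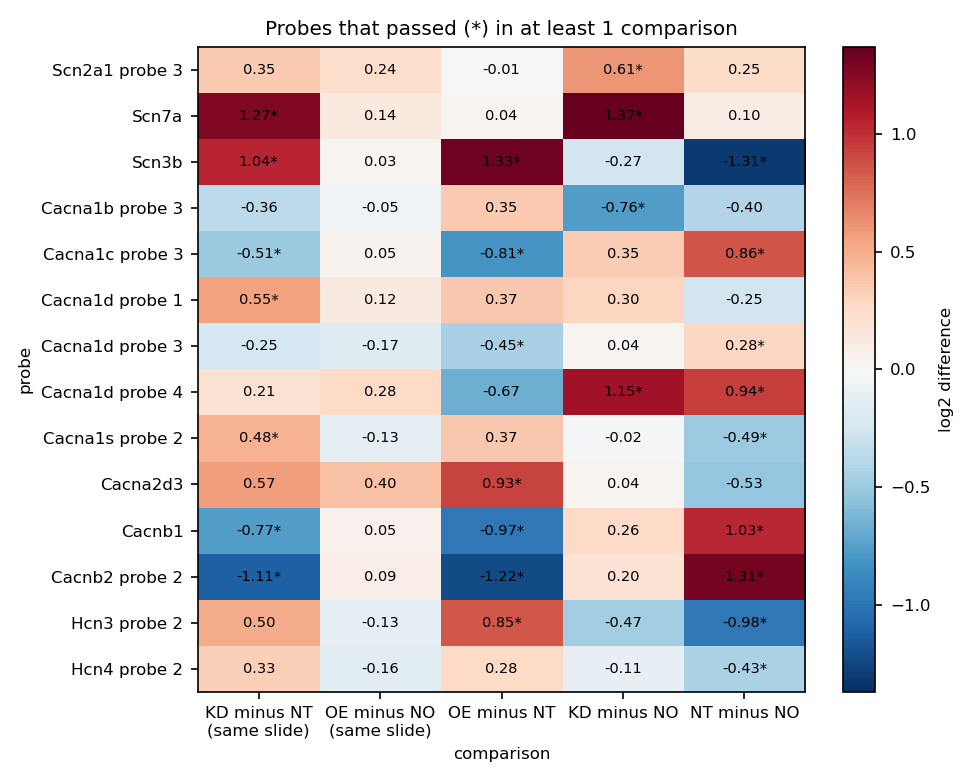
Log2 differences, written in each cell and coloured from blue (negative) to red (positive), of 14 channel probes (y axis) that passed in at least 1 of 5 comparisons (x axis); a star marks a passed test. The column OE minus NO holds no star, and Scn3b, Cacnb1, Cacnb2 probe 2 and Cacna1c probe 3 carry a star in each of the 3 comparisons that hold NT and in none of the other 2.

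Proteins that bind, anchor or regulate these channels were read as a list, of which 43 genes had a probe and 40 were tested with 1 probe each. The list was chosen by hand with earlier results of these data known, and the list as a whole was not tested. In KD against NT 14 of the 40 were higher and 1 was lower, where 10.3% and 10.8% of all probes passed in these directions, and the median log2 difference of the 40 was 0.24. Pex5l, the accessory subunit that sets the traffic of HCN channels, rose by 1.88 (SE 0.18, adjusted p = 4.31e-06). The fibroblast growth factor homologous factors, which bind the tail of sodium channel pores, rose for the 3 members tested: Fgf12 by 1.05, Fgf14 by 0.91 and Fgf13 by 0.77. The cell adhesion genes Nrcam and Cntn1, which partner sodium channels at the axon, rose by 1.40 and 0.96.

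Ubiquitin ligase Nedd4l, which removes sodium channels from the membrane, rose by 1.30. Of the gamma family, Cacng3 rose by 0.90 and Cacng2 by 0.51; both are best known as subunits of AMPA receptors. The other rises were Akap5 (0.82), an anchor of kinases and calcineurin at L-type channels, Rem2 (0.78), a small GTPase that inhibits calcium channels, Ppp3ca (0.58), a catalytic subunit of calcineurin, Cabp1 (0.47), a calcium-binding modulator of L-type channels, and Nalcn (0.44), the sodium leak channel. Ppp3cb, the other calcineurin catalytic subunit on the list, fell by 0.65 (adjusted p = 0.0208). In OE against NO 0 of the 40 passed in either direction.

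For Pex5l the group means were 11.39 in KD, 10.65 in OE, 9.51 in NT and 10.80 in NO samples. In KD against NO 7 of the 40 partners were higher and 2 lower, beside 4.77% and 5.36% of all probes, and in NT against NO 2 were higher and 7 lower, beside 11.2% and 11.1%. Pex5l was among the 7 that were lower in NT than in NO, by 1.30, together with Cacng3, Rem2, Fgf14, Nrcam, Nfasc and Rrad.

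**Figure D5:**
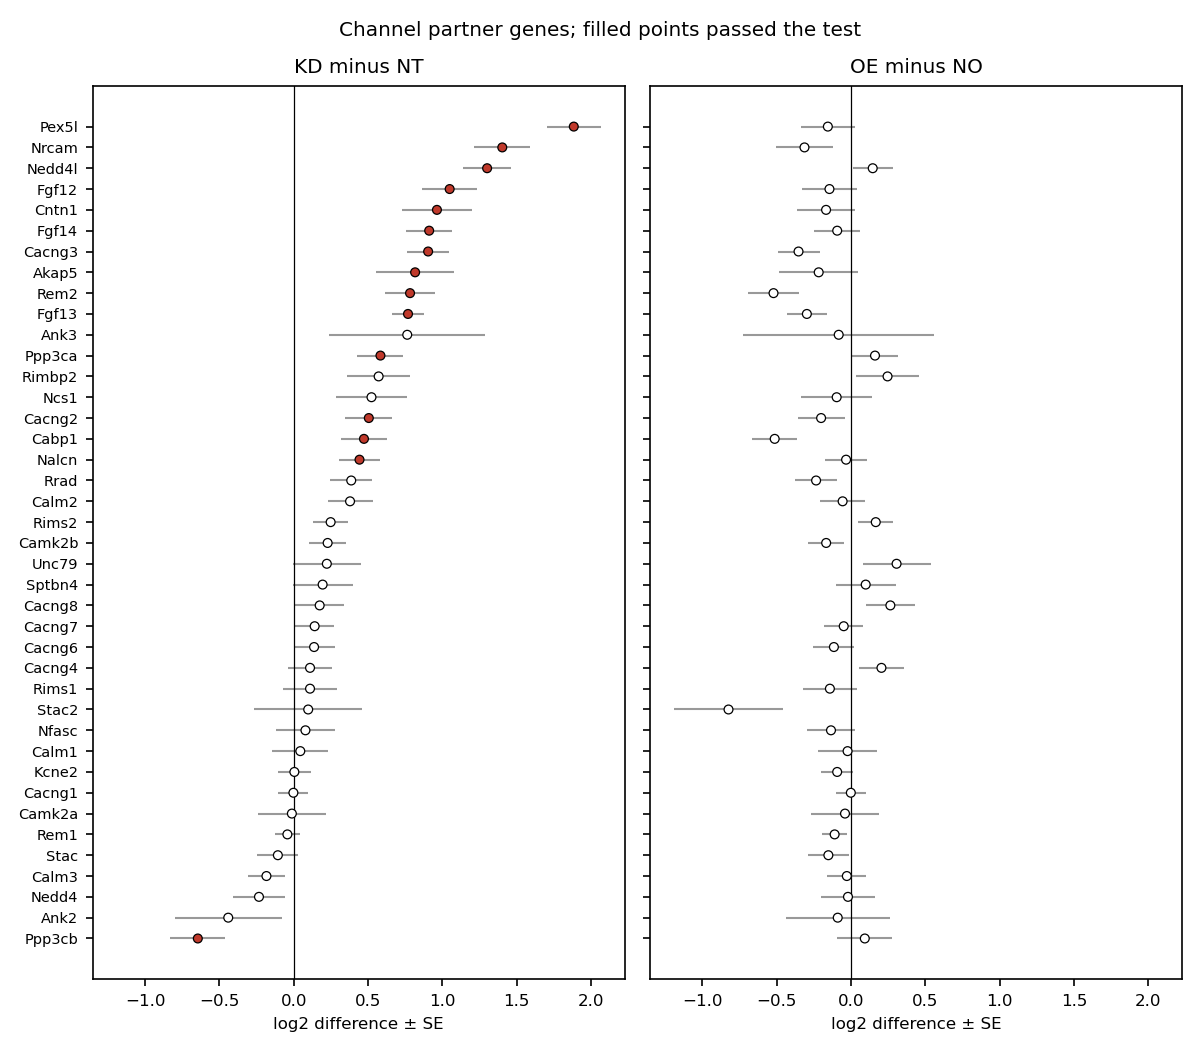
Log2 difference ± SE (x axis) for the 40 tested partner genes (y axis, ordered by KD minus NT), for KD minus NT on the left and OE minus NO on the right. Filled points passed the test: 14 to the right of 0 and 1 to the left of it in KD minus NT, and 0 in OE minus NO.

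Promoter sequences (RefSeq, assembly GRCr8) were found for 23 of the 36 genes, 26 sequences in all. The motif TGANTCA, in which N is any base, is wider than the site of AP-1 dimers with c-Jun, which has C or G in the middle. It was present on either strand in 1 of the 26 and in 7.329% of 33469 promoters of the same length. The match, in Scn3a, reads TGATTCA, with neither C nor G in the middle. The motif TGACGTCA, which reads the same on both strands, was present in 0 of the 26 and in 1.829% of all. A match to these letters does not show binding.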

How the data were processed

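The deposited scanner files hold spot intensity values (mean foreground and median background per dye) that, per the file headers, were extracted by the authors with Agilent Feature Extraction 10.7.3.1 and not normalized. Their processed signals, per the file headers, were background-subtracted and dye-normalized within the array. A series matrix, also deposited, gives log2 net signals centred on each column's median, which regression on the scanner values bore out (slope and r of 1). Groups came from the source label; another label field describes adult tissue, goes against the culture protocol and was not used.

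Intensities were corrected by normexp (offset 50), loess within arrays and Aquantile between arrays in limma 3.58.1 with statmod 1.5.0 (R 4.3.3). Outlier spots were set missing, spots of a probe averaged, and probes kept with at least 4 samples well above background, 12 values in all and 2 per group, which left 27294. Group and dye were fitted, with arrays as a random block (within-array correlation 0.562), and two-sided p-values were Benjamini-Hochberg adjusted over all probes. The number of arrays limits the precision. Same-numbered samples of KD and NT correlated at 0.137 to 0.264 after removal of group means. Odd and even numbers are the dyes. With dye also removed the values were 0.184 for replicates 1 and 3 and 0.130 for 2 and 4. Replicates of 1 dye must then give the same value, which reflects only the difference between the 2 arrays of a group. In NT against NO these values were 0.092 and 0.201, so they do not single out KD against NT. Reading the numbers as pairs in KD against NT alone was a choice, made from the data and not from the labels, and the pairing is not established. The fit with the replicate number as a block gave each number an effect shared by the samples of all groups, in place of the dye. The replicate effects used for KD against NT were thus estimated partly from OE and NO samples. Some genes of the families, 1 further gene and 1 probe sequence are not reported here, and counts over the families include them; the other genes are each named; full values are given for probes that passed on the same slide, and for the probe with the smallest p where a subfamily had none. Across slides, up to 5 rises and 5 falls that passed are named, and of the partner list those that passed on the same slide; other probes with values of every sample were picked with their values already seen. The genes, lists and tests were chosen with earlier results of these data known. Positions come from the array's own annotation (rn4), which gives no exon or untranslated-region class; probes are numbered by position in the transcript each was designed to.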

Additional observations from a re-analysis of the deposited data

Results flagged for a closer look

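In 10 of the 189 sets of 4 values (48 probes in 4 groups, leaving out sets with a missing value), 1 sample lay so far from the other 3 that its gap, as a share of the range, exceeded Dixon's critical value; chance gives about 1 in 20 such sets. In KD these were replicate 4 of Cacna1d probe 2, at 7.80 beside 7.64 to 7.65, and replicate 3 of Scn10a, at 7.36 beside 7.24 to 7.26. In OE they were replicate 2 of Cacnb2 probe 1, at 7.30 beside 7.34, replicate 2 of Scn11a, at 7.44 beside 7.32 to 7.34, and replicate 4 of Scn7a, at 7.57 beside 7.17 to 7.18. In NT it was replicate 3 of Scn8a probe 2, at 7.65 beside 8.01 to 8.05. In NO they were replicate 2 of Cacna1b probe 2, at 7.03 beside 7.20 to 7.21, replicate 2 of Cacna1d probe 3, at 8.70 beside 8.61, replicate 3 of Cacna1i, at 6.90 beside 7.32 to 7.39, and replicate 3 of Cacna1s probe 1, at 6.75 beside 7.14 to 7.18. None of the KD and NT sets named here belongs to a probe that passed in KD against NT.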

How the results depend on the processing

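Of the 8 channel probes that passed in KD against NT, Scn3b (1.00 to 1.13), Cacnb2 probe 2 (-1.21 to -0.96) and Scn7a (0.99 to 3.12) passed under every alternative that gave them a value, 22, 22 and 21 alternatives. No probe of the 8 changed direction. Cacnb1, Cacna1c probe 3, Cacna1s probe 2 and Cacna1d probe 1 lost their calls under 4, 3, 7 and 8 alternatives. The counts of channel probes that passed are listed where they moved by more than 1.5-fold, each with the share of all probes that passed at the same setting. Smaller moves are left out of the list. In KD against NT these included 11 (21.8%) with the processed signals and 6 (12.4%) without the first KD array. In KD against NT the count of 8 (21.1%) became 5 (14.3%) with each array as 1 value, 16 (35.9%) with no array block, 4 (13.1%) without the second KD array and 14 (25.1%) without the first NT array. In KD against NO the count of 5 (10.1%) became 8 (14.2%) with the deposited values, 3 (10.1%) with 1 probe per gene, 12 (26%) with no array block, 2 (4.4%) without the first and 3 (4.84%) without the second KD array. In OE against NT the count of 7 (22.5%) became 11 (25.9%) with the deposited values and 13 (39.6%) with no array block. In NT against NO the count of 9 (22.3%) became 5 (15%) with each array as 1 value, 18 (39.6%) with no array block, 14 (26.1%) with the replicate block, 5 (13.9%) with only the samples of both groups and 5 (17.1%) without the second NO array. For KD minus NT less OE minus NO, the count of 4 (9.64%) became 2 (9.1%) with processed signals, 9 (13.9%) with the deposited values, 2 (4.17%) with each array as 1 value, 11 (22.6%) with no array block, 7 (12.1%) with the replicate block and 8 (15.1%) without the first NT array. The cause was not tested. Leaving out single replicates gave 6 to 9 calls in KD against NT, 0 in OE against NO, 7 to 8 in OE against NT, 4 to 5 in KD against NO, 7 to 10 in NT against NO and 3 to 5 for the difference. OE against NO gave 0 under every alternative run. The replicate block gave 11 calls in KD against NT; it added the 3 named in the report and lost none. In the other pairs of groups the numbers were not read as pairs, although the same fit covered them. Correlations there ran from -0.192 to 0.332. In KD against NO they were 0.166 to 0.267, but 0.0886 and 0.153 with dye also removed. The block gave 7 calls in KD against NO and 9 in OE against NT and lost none. Dim probes such as Cacna1s, Scn7a and Hcn4 had little signal over background, which compresses their differences.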
